A study of Mus musculus with 4 samples.

Results

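Keratin and desmosome transcripts were followed across the cell types of the caudal part of the E8.5 mouse embryo. The 10 genes were chosen by symbol from the 31055 genes counted, and comprise the type II keratins *Krt5* and *Krt8*, the type I keratins *Krt18* and *Krt19*, the desmosomal cadherins *Dsg2* and *Dsc2*, the plaque genes *Jup* and *Pkp3*, and the plakins *Dsp* and *Ppl*. Single-cell RNA sequencing (scRNA-seq, 10X 3′ chemistry) had been run on C57BL/6 embryos from crosses of *Grhl3* heterozygotes. The wild-type (WT) cells came from 5 pooled embryos and the *Grhl3*-null cells, which carry no functional copy of this Grainyhead-like transcription factor gene in any tissue, from 3 pooled embryos. Each pool gave 2 libraries, so a comparison of the genotypes is one of 2 pools of cells, the spread between libraries is technical, and a p-value holds no spread between embryos.

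Keratins are the intermediate filaments of epithelial cells, and a filament needs a type I partner such as KRT18 or KRT19 for each type II partner such as KRT8 or KRT5. KRT8 and KRT18 form the filaments of simple and early embryonic epithelia, whereas KRT5 marks the basal layer of the stratifying epidermis. Filaments are anchored at desmosomes, where the cadherins DSG2 and DSC2 bind across the cell gap. Plakoglobin (JUP) and plakophilin 3 (PKP3) lie in the plaque under the membrane, and desmoplakin (DSP) ties the plaque to keratin. Periplakin (PPL) is a plakin found with desmosomes and filaments and later in the cornified envelope of the skin.

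After filtering, 20198 cells were kept, with 5459 and 5116 WT cells and 4842 and 4781 *Grhl3*-null cells by library and medians of 33391 to 38070 unique molecular identifiers (UMIs, 1 per captured transcript) per cell. Clustering gave 16 clusters, joined into 15 classes that were named from marker genes. The name of a class carries the ending -like, and 1 cluster of 525 cells stayed unnamed. The surface ectoderm/neural plate border-like class held 250 and 221 WT and 262 and 263 *Grhl3*-null cells, and the gut-like class held 279 and 243 WT and 402 and 385 *Grhl3*-null cells. The pre-somitic mesoderm-like class held 487 and 463 WT but only 3 and 4 *Grhl3*-null cells, so it was not tested, and neither were the 59 primordial germ cell-like cells. *Krt8*, *Krt18* and *Krt19* are among the naming markers, and 7 of the 10 genes were among the variable features used for clustering. With all 10 left out of the clustering, 98.0% of the surface ectoderm-like and 99.8% of the gut-like cells stayed in their class, but the share was 64.7% for the somitic mesoderm-like and 15.6% (407 of 2611 cells) for the mesenchyme 1-like class. The libraries shared between 5 and 7 cell barcodes per pair. *Grhl3* itself was counted at 32.8 and 26.2 counts per 1000000 UMIs (CPM) in WT libraries and at 0.227 and 0.348 CPM in *Grhl3*-null libraries of the surface ectoderm-like class.

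The 2 most abundant members lie beside each other on chromosome 15 of GRCm38 (mm10), *Krt8* at 101996698 to 102004482 on the minus strand and *Krt18* at 102028180 to 102032027 on the plus strand. Their proximal promoters are shown because their levels were the most alike of all member pairs across classes and both fell in the surface ectoderm-like class, although in some other classes just 1 of them was called. The 250 bases upstream of the start are those of RefSeq on GRCm38.p6, at chr15:102004343-102004592 (minus strand) for *Krt8* and chr15:102027966-102028215 (plus strand) for *Krt18*, 5′ to 3′. The gene positions above are from GENCODE, whose starts lie farther upstream, so part of each window falls inside the gene as placed there. Capitals mark the AP-2 motif GCCNNNGGC, which is the pattern of TFAP2A and TFAP2C and reads the same on both strands.
Krt8: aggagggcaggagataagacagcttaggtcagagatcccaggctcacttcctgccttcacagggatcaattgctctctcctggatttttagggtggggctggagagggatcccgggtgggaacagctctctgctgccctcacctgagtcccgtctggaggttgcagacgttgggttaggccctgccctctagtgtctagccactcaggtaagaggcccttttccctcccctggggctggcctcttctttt
Krt18: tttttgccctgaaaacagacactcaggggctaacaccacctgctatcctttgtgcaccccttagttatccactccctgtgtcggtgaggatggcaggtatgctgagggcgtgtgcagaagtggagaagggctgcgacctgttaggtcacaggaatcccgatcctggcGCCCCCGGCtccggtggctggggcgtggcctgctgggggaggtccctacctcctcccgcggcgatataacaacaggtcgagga
*Krt18* holds 1 AP-2 match, starting 83 bases before its RefSeq start, and *Krt8* holds none. Of the 32851 promoter windows in the table, 13.7% hold this motif. The Grainyhead-like motif AACCGGTT was in 0.116% of all windows and its core ACCGGT, which it contains, in 1.86%, and neither was in the windows of the 5 members with an entry (*Krt5*, *Krt8*, *Krt18*, *Dsp* and *Jup*). A match describes these letters and is not a binding site.

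The levels of the members by class are a description without a test, since the members helped to form the classes. CPM from 3′ UMIs count each transcript once, so that levels of different genes can be set side by side, although capture can differ between genes. In WT cells 7 of the 10 members (*Krt5*, *Krt8*, *Krt18*, *Dsg2*, *Dsc2*, *Pkp3* and *Ppl*) had their highest mean level in the surface ectoderm-like class, among 14 classes with at least 10 cells in each WT library. The level of *Krt8* was 775 ± 8.01 CPM there (SD, n = 2), followed by 658 ± 0.584 in the notochord-like, 593 ± 1.39 in the gut-like, 377 (376 and 378) in the mesenchyme 2-like and 222 ± 15.9 in the mesenchyme 1-like class. *Krt18* had the same 5 leading classes, at 688 ± 13.4 CPM in surface ectoderm-like and 686 ± 25.4 CPM in gut-like cells, which is a difference within the spread. These simple keratins were thus not confined to surface epithelium. In the neuroepithelium-like class, which adjoins the neural plate border, *Krt8* was at 7.12 ± 1.25 CPM and *Krt18* at 10.4 ± 0.832 CPM. At a finer clustering, with resolution 0.8 in place of 0.4, a mesenchyme 2-like class led with *Krt8* at 1147 CPM and *Krt18* at 1036 CPM, ahead of the surface ectoderm-like class.

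*Krt19*, a type I keratin without the usual tail domain, followed another order. It was highest in the notochord-like class (388 and 255 CPM in the WT libraries) and the gut-like class (303 and 293 CPM), and those ranges overlap. The surface ectoderm-like class came next at 78.7 and 79.0 CPM. *Krt19* made up 10.4% and 10.2% of the summed *Krt18* and *Krt19* UMIs in WT surface ectoderm-like cells, 31.2% and 29.4% in gut-like cells and 41.1% and 32.5% in notochord-like cells. *Krt5* was rare, with 8.51 and 4.91 CPM in surface ectoderm-like cells, which was 113 and 61 UMIs. It was next highest in the notochord-like class at 1.76 ± 0.105 CPM, and 64.9% and 78.5% of all WT *Krt5* UMIs came from the surface ectoderm-like class. Type II and type I keratin UMIs were nearly equal in the surface ectoderm-like class, at a ratio of 1.04 and 0.997 in the WT libraries, but stood at 0.610 and 0.596 in the gut-like class.

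The desmosomal genes were not limited to the surface ectoderm-like and gut-like epithelia. *Dsp* was at 129 ± 0.694 CPM in the notochord-like, 127 ± 7.88 in the mesenchyme 2-like, 119 ± 0.276 in the surface ectoderm-like, 91.4 ± 11.9 in the gut-like and 79.0 ± 3.68 CPM in the mesenchyme 1-like class. The first 2 do not differ beyond their spread. *Dsg2* was at 38.3 ± 1.40 CPM in surface ectoderm-like and 28.1 ± 0.759 CPM in gut-like cells, and *Dsc2* at 30.5 ± 2.91 and 23.3 ± 0.720 CPM, and every other class was under 12 CPM for both. *Jup* was highest in the endothelium-like class (36.6 ± 3.44 CPM), a place where plakoglobin is also part of adherens junctions, and reached 22.9 ± 1.02 CPM in surface ectoderm-like and 22.7 ± 2.31 CPM in gut-like cells. *Pkp3* (8.03 ± 0.485 and 4.78 ± 0.554 CPM) was under 3 CPM outside these epithelia. *Ppl* was the most restricted desmosomal member. It was at 21.9 ± 1.84 CPM in surface ectoderm-like cells, 3.75 ± 0.610 CPM in gut-like cells and at most 1.13 ± 0.0308 CPM elsewhere, and 73.4% ± 0.831 of the WT *Ppl* UMIs came from the surface ectoderm-like class.

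**Figure D1:**
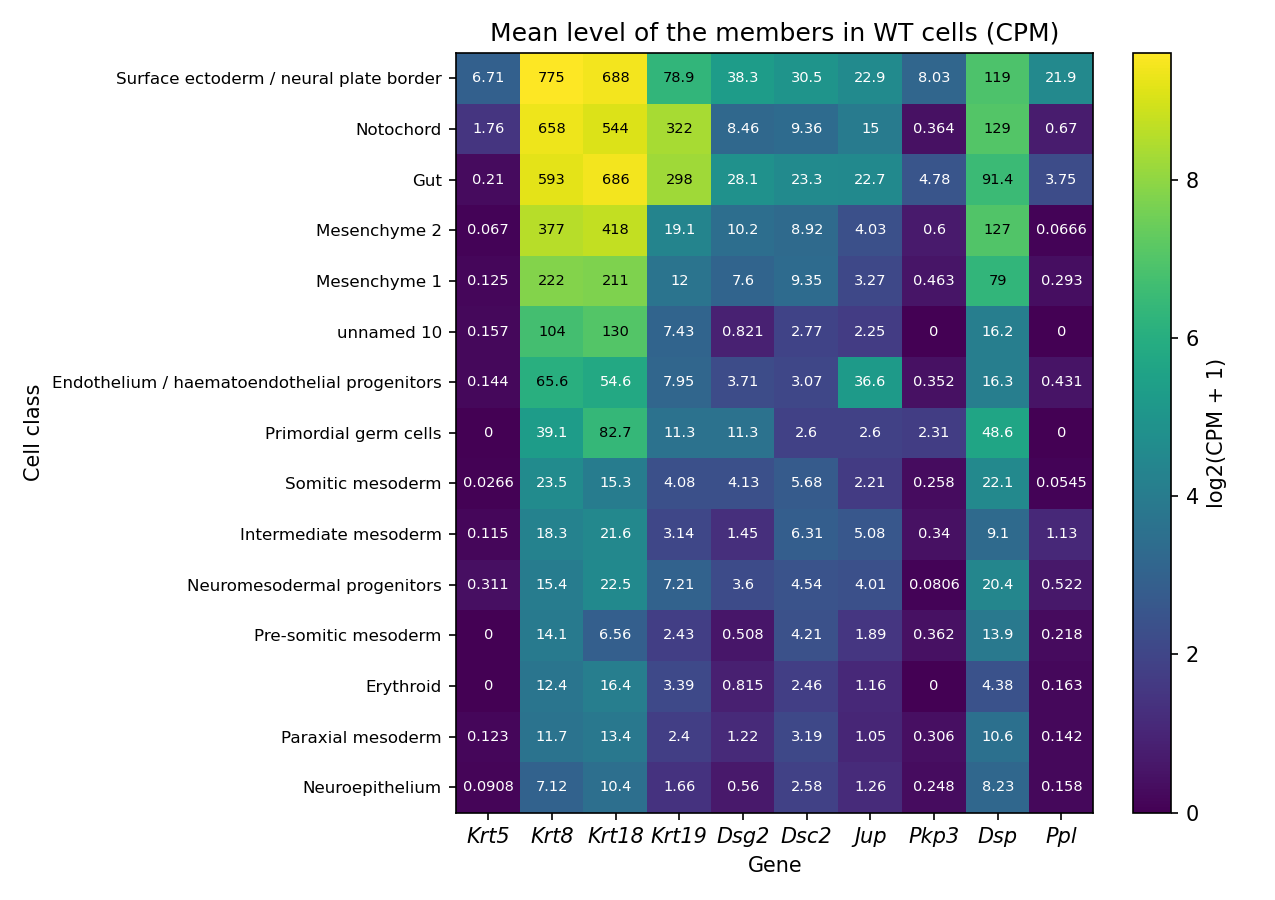
Mean level (CPM, printed in each cell, colour on a log2(CPM + 1) scale) of the 10 members (columns) in the 15 classes (rows, ordered by *Krt8*) of the 2 WT libraries. *Krt8*, *Krt18* and *Dsp* are high in surface ectoderm, notochord, gut and both mesenchymes, whereas *Krt5* and *Ppl* are high in surface ectoderm alone.

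Over the 15 classes the WT profiles of *Krt8* and *Krt18* were most alike among the 45 pairs of members (Pearson's r = 0.978 of log2(CPM + 1)), and *Dsp* and *Ppl* were least alike (r = 0.443). The genes outside the list whose profile was most like the mean of the members were *Esrp2* (r = 0.952), an epithelial splicing regulator, *Arhgap8* (0.929), *Cryab* (0.922), *Platr22* (0.907) and *Arhgef16* (0.907), out of 10015 genes. Those most like *Krt8* were *Retreg1* (0.911), *Garnl3* (0.905) and *Pdgfc* (0.877), those most like *Krt5* were *Sema3d* (0.972), *Wnt7a* (0.955) and *Sp9* (0.934), and those most like *Dsp* were *Lypd6* (0.906), *Patj* (0.893) and *Retreg1* (0.878). The points share their libraries and the classes were built from expression, so these are descriptions.

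Within the 471 WT surface ectoderm-like cells, *Krt8* and *Krt18* varied together from cell to cell (r = 0.808 and 0.829 in the 2 libraries), and *Krt18* ranked 1 of 10892 genes by correlation with *Krt8*. In gut-like cells the same pair reached r = 0.840 and 0.887, and there *Krt19* was tied to *Krt8* as well (r = 0.638 and 0.689, against 0.237 and 0.368 in surface ectoderm-like cells). *Ppl* was the member most correlated with *Grhl3*, with r = 0.510 and 0.336, rank 15 of 10892 genes. *Dsp* ranked 85 (r = 0.313 and 0.247). *Krt19* (r = -0.180 and -0.182) and *Pkp3* (r = -0.173 and -0.0805) were at the other end of the scale, whereas 90% of genes lay between -0.111 and 0.137 over both libraries. The same contrast appeared in levels, where *Ppl* was at 28.1 and 25.0 CPM in cells with a *Grhl3* UMI and 15.4 and 11.7 CPM in cells without. *Krt19* was at 64.7 and 60.4 CPM with and 101 and 117 CPM without. The cells with a *Grhl3* UMI were deeper (medians of 62360 and 64008 UMIs against 33121 and 31553.5), and the part of depth was not tested.

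The comparison of the genotypes asked how loss of *Grhl3* changed these genes in the tissue that expresses it most. In the surface ectoderm-like class, 5 of the 10 members fell in *Grhl3*-null cells (*Ppl*, *Dsc2*, *Krt18*, *Jup* and *Krt8*), 1 rose (*Krt19*) and 4 did not pass the test, where 14.5% of the 12590 genes tested were called. All 10 members were tested, and their median log2 fold change was -0.40, beside 0.00 over all genes. Tests were edgeR quasi-likelihood tests on summed UMIs with Benjamini-Hochberg adjusted p-values over all genes, and a gene was called at an adjusted p under 0.05. *Ppl* changed most. It was at 23.2 and 20.6 CPM in WT and 8.69 and 6.61 CPM in *Grhl3*-null libraries. The log2 fold change was -1.54 ± 0.132 (SE, adjusted p = 5.3e-08). The cells holding any *Ppl* UMI made up 50.0% (exact binomial limits 43.6 to 56.4, 95% confidence) and 44.3% (limits 37.7 to 51.2) of the WT class. In null libraries they made up 27.1% (limits 21.8 to 32.9) and 17.9% (limits 13.4 to 23.0). After thinning every cell to 7500 UMIs these shares were 11.2% and 11.8% against 7.63% and 3.42%. Erythroid-like cells, in which this gene is not expected, had a *Ppl* UMI in 1.47% and 0% of WT and 0% and 2.99% of null cells, at medians of 36345.5 to 47071 UMIs. There, 0 of 50 and 0 of 60 cells allow shares of up to 6% and 5%.

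Both simple keratins fell. *Krt18* was at 679 and 698 CPM in WT and 453 and 541 CPM in null libraries (log2 fold change -0.51 ± 0.0594, adjusted p = 4.42e-06). *Krt8* was at 781 and 769 CPM in WT and 552 and 700 CPM in null libraries (-0.35 ± 0.0679, adjusted p = 0.00129). The null libraries were far apart for *Krt8*, which was at -0.19 without *Grhl3*-null replicate 1 and lost its call with DESeq2 (adjusted p = 0.29). In male cells alone, which were a larger share of the null libraries, neither was called (*Krt18* -0.02, adjusted p = 0.91, and *Krt8* -0.08, adjusted p = 0.56). *Krt19* moved the other way. It was at 78.7 and 79.0 CPM in WT and at 116 and 126 CPM in null libraries (0.58 ± 0.0551, adjusted p = 2.67e-07). Its share of *Krt18* plus *Krt19* UMIs went from 10.4% and 10.2% to 20.4% and 18.9%, while the ratio of type II to type I keratin UMIs was 1.04 and 0.997 in WT and 0.987 and 1.06 in null libraries. The part of the sum that *Krt18* held was thus lower and that of *Krt19* higher, with ranges of the type II to type I ratio that overlapped. *Krt5* was at 8.51 and 4.91 CPM in WT and 9.75 and 9.39 CPM in null libraries (0.47 ± 0.186, adjusted p = 0.102), but without WT replicate 1, its highest WT library, it passed at 0.92 (adjusted p = 0.0008).

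Among the desmosomal genes, *Dsc2* was at 28.5 and 32.6 CPM in WT and 20.5 and 20.9 CPM in null libraries (log2 fold change -0.60 ± 0.0952, adjusted p = 0.000166). Its cadherin partner *Dsg2*, at 39.3 and 37.3 against 36.2 and 32.9 CPM, did not pass (-0.18 ± 0.0795, adjusted p = 0.133). In male cells alone *Dsg2* passed (-0.46, adjusted p = 0.0079), and in female cells alone it did not (-0.02, adjusted p = 0.91). *Jup* was at 23.7 and 22.2 CPM in WT and 16.6 and 18 CPM in null libraries (-0.45 ± 0.0995, adjusted p = 0.00379), and its call was lost with DESeq2 (adjusted p = 0.11) and in female cells alone (-0.25, adjusted p = 0.27). *Pkp3*, at 7.68 and 8.37 against 4.99 and 6.78 CPM, was just outside the threshold (-0.50 ± 0.174, adjusted p = 0.0594), and was at -0.72 without *Grhl3*-null replicate 2. In female cells alone *Pkp3* passed (-0.68, adjusted p = 0.035), and in male cells alone it did not (-0.08, adjusted p = 0.91). *Dsp*, the most abundant desmosomal member, was at 119 and 119 CPM in WT and 118 and 123 CPM in null libraries, with a log2 fold change of -0.02 and an approximate 95% interval of -0.12 to 0.08. The desmosomal members that fell were a cadherin, a plaque gene and a plakin.

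Markers of other cells and of handling also differed in this class. Of the 5 haemoglobin genes tested all 5 fell (log2 fold changes -2.57 to -1.49), where *Hba-x* stood at 118 and 8.05 CPM in the WT and 11 and 11.4 CPM in the null libraries. The fall of *Hba-x* thus rests on 1 WT library, and the other was lower than both null libraries. Of 8 visceral endoderm genes 4 passed the count filter and all 4 rose, with *Ttr* at 0.354 CPM in WT and 2.63 CPM in null and *Afp* at 0.116 and 1.58 CPM. These were far under their mean WT and null gut-like levels of 208 and 499 CPM and 62.6 and 128 CPM. *Ttr* and *Afp* passed the filter through their level in null, so their calls are descriptions. Among 9 genes induced by dissociation 5 fell (*Fosb*, *Egr1*, *Junb*, *Fos* and *Ier2*) and 1 rose (*Atf3*). Their part in the results of the members was not tested.

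**Figure D2:**
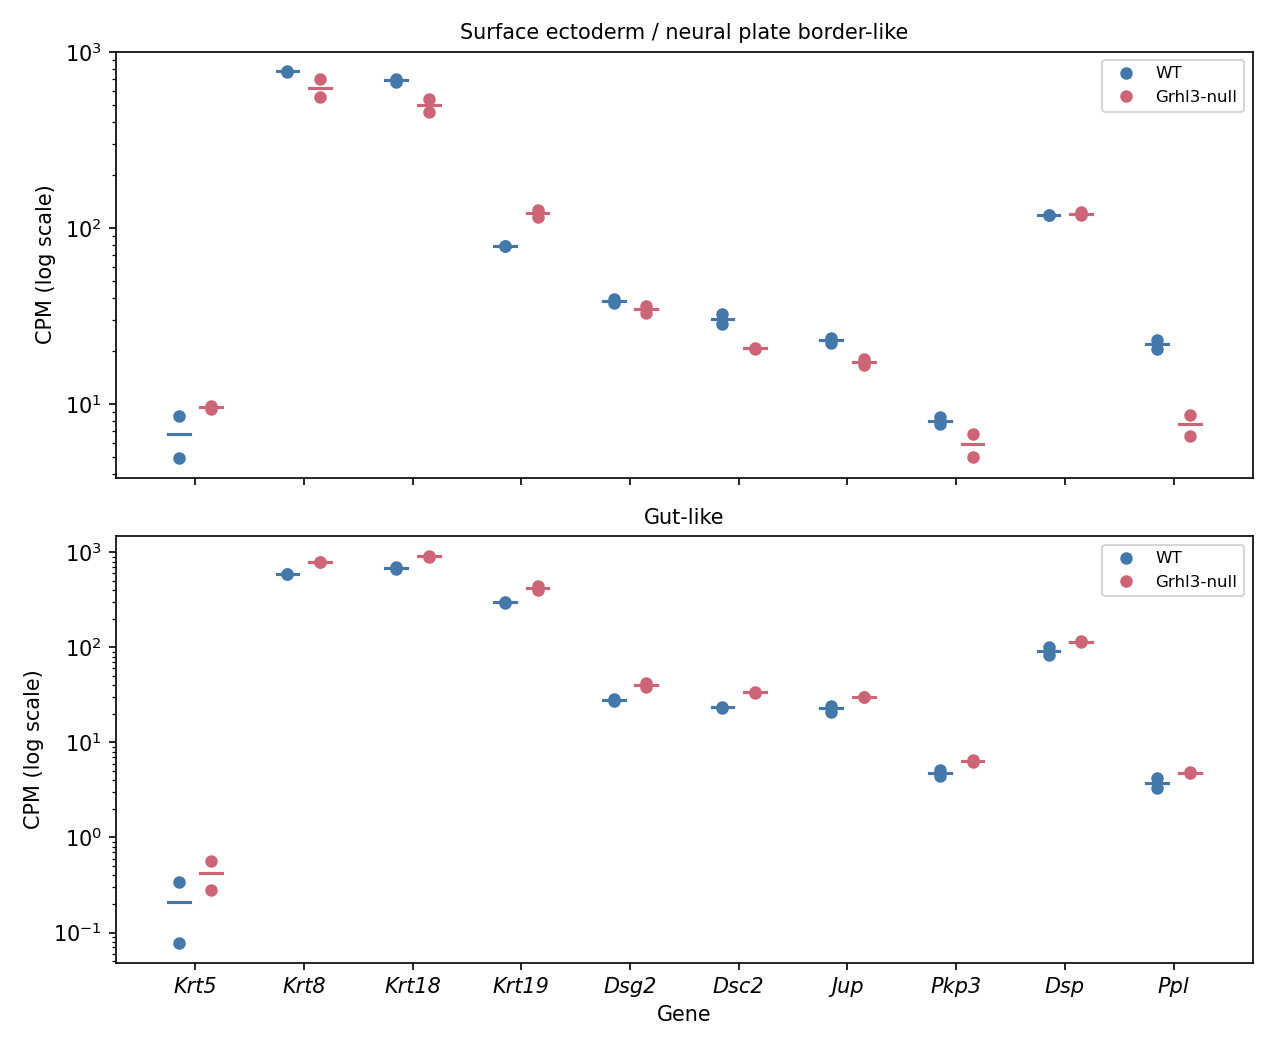
Level of each member (CPM, log scale) in each library of the surface ectoderm/neural plate border-like (upper) and gut-like (lower) class, with points for the 2 WT and 2 *Grhl3*-null libraries and bars at their means. *Ppl* goes from 21.9 to 7.65 CPM in the upper panel, and in the lower panel the means of all 10 members are higher in null.

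In the gut-like class, an epithelium with little *Grhl3* (1.30 and 1.00 CPM in WT), 7 of the 9 members tested rose and none fell, where 20% of the 13124 genes tested were called. *Krt5* was too rare for the test (6 WT and 15 null UMIs). The median log2 fold change of the 9 was 0.37, beside 0.00 over all genes. *Krt8* was at 592 and 594 CPM in WT and 793 and 783 CPM in null libraries (0.37 ± 0.0385, adjusted p = 5.43e-07), and *Krt18* at 668 and 704 against 897 and 919 CPM (0.37 ± 0.0400, adjusted p = 1.1e-06). *Krt19* was at 303 and 293 against 437 and 404 CPM (0.46 ± 0.0462, adjusted p = 3.72e-07). Its call was lost in male cells alone (0.14, adjusted p = 0.21). Both cadherins rose. *Dsc2* was at 22.8 and 23.8 against 33.7 and 33.4 CPM (0.49 ± 0.0721, adjusted p = 5.09e-05), and *Dsg2* at 27.6 and 28.6 against 41.8 and 38.4 CPM (0.48 ± 0.0700, adjusted p = 4.72e-05). In female cells alone the call of *Dsc2* was lost (0.17, adjusted p = 0.42). *Jup* (0.37 ± 0.0797, adjusted p = 0.00216) and *Dsp* (0.28 ± 0.0638, adjusted p = 0.00326) rose as well. The call of *Jup* was lost with DESeq2 (adjusted p = 0.077) and without WT replicate 1 (log2 fold change 0.26, adjusted p = 0.061), and that of *Dsp* without WT replicate 2 (0.16, adjusted p = 0.09). In male cells alone *Jup* was not called (0.18, adjusted p = 0.37), and in female cells alone *Dsp* was not (0.15, adjusted p = 0.33). *Pkp3* (0.37, adjusted p = 0.137) and *Ppl* (0.31, adjusted p = 0.275) did not pass. The gut-like cells were 5.11% and 4.75% of the WT and 8.30% and 8.05% of the null libraries, and 6 of 8 visceral endoderm genes rose in them (*Apob* by 1.51, *Ttr* by 1.23 and *Rbp4* by 1.05 on the log2 scale), a change whose part in the keratin result was not tested.

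**Figure D3:**
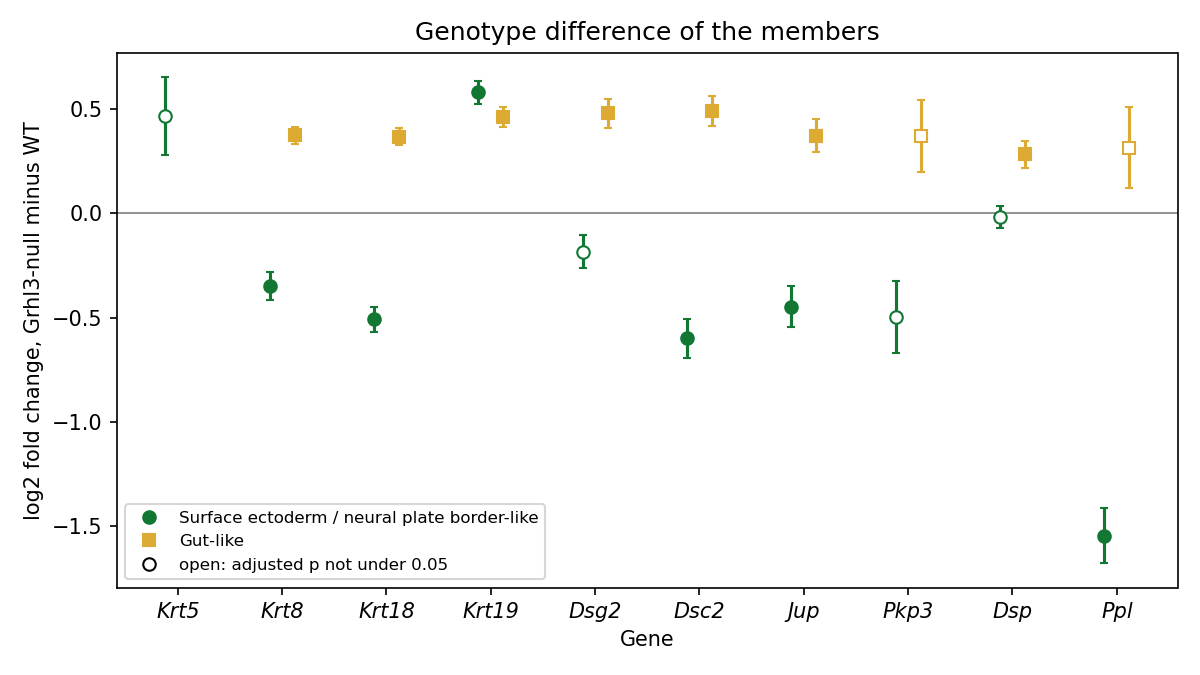
Log2 fold change of each member (*Grhl3*-null minus WT, edgeR, bars are standard errors) in the surface ectoderm/neural plate border-like (circles) and gut-like (squares) class, with open symbols where the adjusted p was not under 0.05. *Krt8*, *Krt18*, *Dsc2* and *Jup* lie under 0 in surface ectoderm and above 0 in gut, whereas *Krt19* lies above 0 in both.

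The difference between these effects was itself tested, as an interaction of genotype and class in 1 fit over 8 profiles. This fit held no term for library, so both profiles of a library counted as independent. It was called for 8 of the 10 members, where 9.13% of 13409 genes were called, and all 8 were lower in the surface ectoderm-like class. The log2 differences were -1.86 ± 0.230 for *Ppl* (adjusted p = 3.35e-05), -1.09 ± 0.118 for *Dsc2* (6.26e-06), -0.88 ± 0.0793 for *Krt18* (6.37e-07), -0.82 ± 0.129 for *Jup* (0.000368), -0.72 ± 0.0911 for *Krt8* (4.2e-05) and -0.66 ± 0.105 for *Dsg2* (0.000395). *Pkp3* (-0.87 ± 0.238, adjusted p = 0.0266) and *Dsp* (-0.30 ± 0.0887, adjusted p = 0.0398) were called with all libraries, and each lost its call when any of 3 single libraries was left out. *Krt19* did not pass (0.12 ± 0.0747, adjusted p = 0.371), nor did *Krt5* (adjusted p = 0.806).

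Over all filtered cells, which also differ in the shares of the classes, 6 members rose and 1 fell. *Krt19* (0.69 ± 0.0357), *Dsg2* (0.29 ± 0.0440), *Krt8* (0.24 ± 0.0368), *Jup* (0.19 ± 0.0407), *Krt18* (0.18 ± 0.0351) and *Dsc2* (0.13 ± 0.0421, adjusted p = 0.0469) were higher and *Ppl* lower (-0.91 ± 0.114, adjusted p = 0.000963), which is 7 of 10 where 35.5% of 17168 genes were called. The call of *Dsc2* was lost without WT replicate 1 (0.08, adjusted p = 0.23) and without either null library (adjusted p = 0.11 and 0.057), and *Krt5* passed without WT replicate 1 (0.66, adjusted p = 0.027). In male cells alone the calls of *Ppl* (0.068, adjusted p = 0.82), *Dsc2* (-0.10, adjusted p = 0.38), *Jup* (0.046, adjusted p = 0.71) and *Dsg2* (0.20, adjusted p = 0.099) were lost. In a sum over all cells, fewer cells of a type and less RNA per cell cannot be told apart. The surface ectoderm-like class gave 29.3% of all *Krt8* UMIs in WT and 19.3% in null libraries, and the gut-like class 24.0% and 35.0%.

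In the other 11 classes that could be tested, 28 calls were made in 71 tests of a member (39.4%), 18 of them higher and 10 lower in null, and 13 with DESeq2. Over the same classes 12.0% of all gene tests were called in the main edgeR fits, between 0.443% and 24.0% by class. With surface ectoderm and gut counted in, *Krt19* rose in 8 of the 12 classes in which it was tested and fell in none. Elsewhere it rose in the somitic mesoderm-like (log2 fold change 1.13, where 17.6% of genes were called), neuromesodermal progenitor-like (1.07, 18.5%), paraxial mesoderm-like (0.74, 21.1%), mesenchyme 1-like (0.67, 6.77%), mesenchyme 2-like (0.65, 20.3%) and unnamed (1.41, 4.88%) classes. Most of these levels were low, at 3.88 and 4.29 CPM in WT and 9.02 and 8.88 CPM in null somitic mesoderm-like cells. With the members left out of the clustering its call was lost in the mesenchyme 1-like class (0.61, adjusted p = 0.07). *Krt19* was not called in the notochord-like class, its highest, at 388 and 255 CPM in WT and 261 and 312 CPM in null libraries.

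*Krt8* and *Krt18* had no single direction elsewhere. In the neuroepithelium-like class, where 24.0% of genes were called, *Krt8* rose from 8.00 and 6.24 CPM to 16.7 and 18.1 CPM (log2 fold change 1.26 ± 0.104, adjusted p = 6.07e-08), and *Krt18* (0.91), *Dsg2* (1.00) and *Dsp* (0.32) rose with it. In the notochord-like class, where 3.53% of genes were called, *Krt18* fell from 557 and 530 CPM to 344 and 330 CPM (-0.69 ± 0.0768, adjusted p = 3.41e-06) and *Krt8* fell from 658 and 658 CPM to 503 and 534 CPM (-0.35 ± 0.0712, adjusted p = 0.00592). *Krt8* fell in the intermediate mesoderm-like class (-1.25, where 2.53% of genes were called) and *Krt18* in the endothelium-like class (-0.59, 0.795%). In the mesenchyme 2-like class *Krt8* (0.35), *Krt18* (0.29), *Dsg2* (0.58) and *Jup* (0.61) rose with *Krt19* and *Dsp* fell (-0.17). *Krt18* fell in the neuromesodermal progenitor-like (-0.33, adjusted p = 0.00249) and paraxial mesoderm-like (-0.29, adjusted p = 0.0338) classes, where *Krt8* was not called, and both rose in the unnamed class (*Krt8* 0.81 and *Krt18* 0.73). In the somitic mesoderm-like class *Krt8* (0.26) and *Dsp* (0.19) rose, and in the mesenchyme 1-like class *Dsp* (-0.37) and *Krt18* (-0.26) fell. These 4 calls were lost with the members left out of the clustering, where the values were -0.032 for *Krt8* and -0.041 for *Dsp* in somitic mesoderm and -0.21 for *Dsp* and 0.18 for *Krt18* in mesenchyme 1. The call of *Jup* in mesenchyme 2 was lost too (0.54, adjusted p = 0.055). *Ppl* fell in the neuromesodermal progenitor-like class (-2.27 ± 0.468, adjusted p = 0.00563), from 23 and 16 UMIs to 4 and 3 UMIs. It passed the count filter there through its level in WT, so this call is a description. In the erythroid-like class, where 0.443% of genes were called, no member passed the edgeR test, and none of the 3 tested there had an unadjusted p under 0.05.

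The surface ectoderm-like class holds committed surface ectoderm, in which the epidermal regulator *Trp63* is expressed, and neural plate border, in which *Tfap2c* is expressed. Cells were therefore split by the UMIs found in them, without use of any member, into those with *Trp63* only (56 and 49 WT and 91 and 80 null cells), with *Tfap2c* only (38 and 30 WT and 19 and 31 null cells), with both and with neither. Most cells of the class in every library held both or neither, so the exclusive sets cover a minority of the class. With library as a block, 3 of 10 members were higher in the *Trp63*-only than in the *Tfap2c*-only cells, where 7.17% of 9573 genes were called. *Krt5* differed most (log2 difference 1.95 ± 0.308, adjusted p = 0.000611), at 10.6 and 9.07 CPM in WT *Trp63*-only and 1.98 and 1.99 CPM in WT *Tfap2c*-only cells. It was too rare in *Tfap2c*-only cells to be tested on those cells alone, so it passed the count filter here through its level in *Trp63*-only cells. Its call is therefore a description. *Krt18* (0.65, adjusted p = 0.00354) and *Krt19* (0.56, adjusted p = 0.000403) followed, and the call of *Krt18* was lost with WT libraries alone (0.26, adjusted p = 0.11). Without WT replicate 1 *Krt8* passed as well (0.51, adjusted p = 0.00085), and without *Grhl3*-null replicate 1 *Dsp* passed as lower in *Trp63*-only cells (-0.50, adjusted p = 0.0098).

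The effect of genotype was then fitted in each subset, a choice made after the levels of *Ppl* in the subsets had been seen. In *Tfap2c*-only cells *Ppl* fell from 41.5 and 31.1 CPM in WT to 6.27 and 0.648 CPM in null libraries, which was from 84 and 47 UMIs to 6 and 1 UMIs. The log2 fold change was -3.70 ± 0.425 (adjusted p = 5.24e-09). *Ppl* passed the count filter in *Tfap2c*-only cells through its level in WT, so this call is a description. *Krt18* fell there from 607 and 539 CPM to 267 and 261 CPM (-1.15 ± 0.0902) and *Krt8* from 796 and 694 CPM to 380 and 412 CPM (-0.94 ± 0.0851), and *Dsp* fell (-0.40) and *Krt19* rose (0.48), which is 5 of 9 members tested where 4.79% of genes were called. In *Trp63*-only cells *Ppl* (-1.04) and *Krt18* (-0.32) fell, 2 of 10 members where 3.27% of genes were called. *Krt8* was at 677 and 743 CPM in WT and 600 and 759 CPM in null *Trp63*-only cells, and these ranges overlap. In cells with both, 6 of 10 members were called where 12.0% of genes were, with *Ppl* at -0.98 and *Krt18* at -0.63. In cells with neither, *Ppl* (-2.38) and *Krt18* (-0.49) fell, 2 of 9 members where 3.10% of genes were called. The effect was stronger in *Tfap2c*-only than in *Trp63*-only cells for 3 of 10 members, where 0.768% of 10153 genes were called. The log2 differences were -2.68 ± 0.606 for *Ppl* (adjusted p = 0.0251), -0.84 ± 0.133 for *Krt18* (0.000683) and -0.83 ± 0.129 for *Krt8* (0.000556). That of *Ppl* rests on the 6 and 1 null UMIs in *Tfap2c*-only cells and is a description. *Tfap2c* is itself lower in null cells of this class (-0.93), so that a *Tfap2c* UMI need not mark the same cells in both genotypes.

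**Figure D4:**
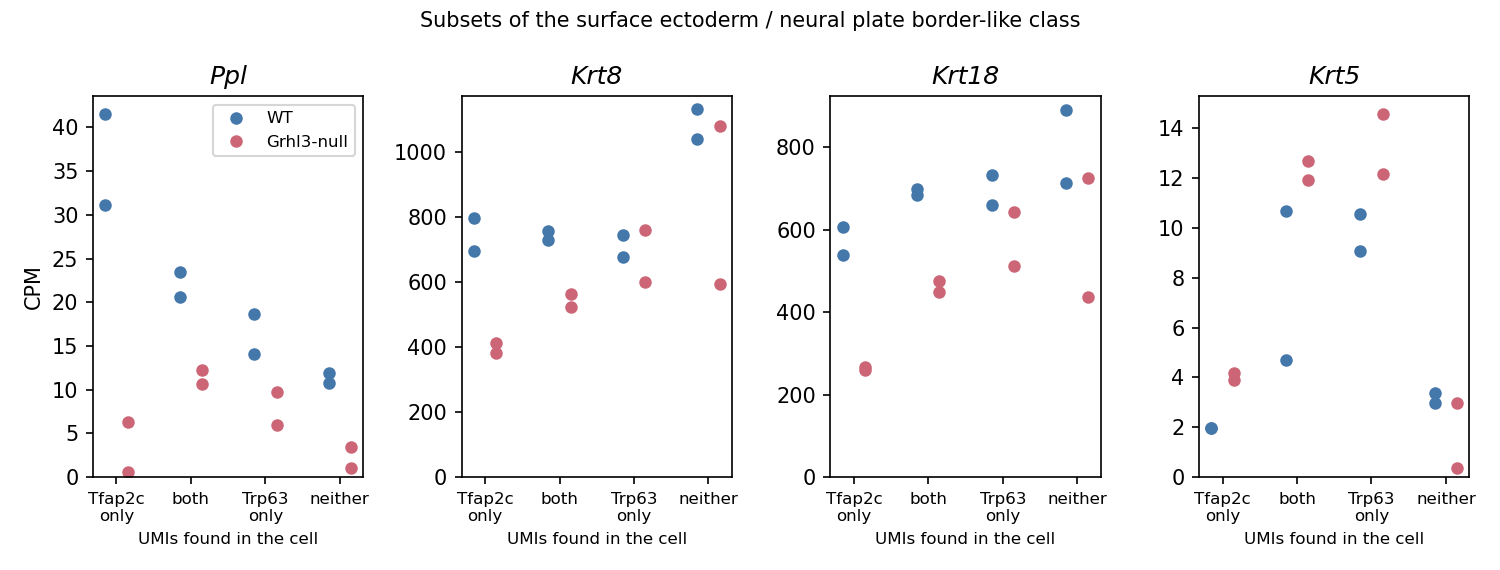
Level (CPM, linear axes from 0) of *Ppl*, *Krt8*, *Krt18* and *Krt5* in each library of 4 subsets of surface ectoderm/neural plate border-like cells, by the UMIs of *Tfap2c* and *Trp63* found in the cell. *Ppl*, *Krt8* and *Krt18* are farthest apart between WT and *Grhl3*-null in *Tfap2c*-only cells.

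The pools differ in their embryos, and sex, read from Y-linked and *Xist* UMIs, separates some of those embryos. Male cells were 23.1% and 23.6% of the WT and 47.0% and 48.1% of the null libraries. In the surface ectoderm-like class the effect of genotype differed between male and female cells for 6 of 10 members, where 11.1% of 11656 genes were called. *Krt5* had opposite directions. In male cells it was at 5.11 and 2.17 CPM in WT and 15.9 and 17.3 CPM in null libraries (log2 fold change 2.23, adjusted p = 1.8e-06), and in female cells at 10.1 and 5.47 CPM in WT and 2.08 and 1.89 CPM in null libraries (-2.04, adjusted p = 0.00039). Summed over the libraries of a genotype, these were 21 WT and 211 null UMIs in male cells and 138 WT and 21 null UMIs in female cells. The difference of the effects was 4.27 ± 0.489 (adjusted p = 2.48e-06). *Ppl* fell in both, at -0.78 in male and -2.51 in female cells, and *Krt19* rose in both, at 1.03 and 0.24. *Krt18* was called in female cells (-0.78, from 750 and 774 CPM to 438 and 488 CPM) and not in male cells (-0.02, adjusted p = 0.91), and *Krt8* likewise (-0.53 and -0.08). *Dsp* fell in male cells (-0.49) and rose in female cells (0.20). In the gut-like class the effect differed for 2 of 9 members, where 7.02% of genes were called, with *Krt19* at 0.14 in male and 0.65 in female cells and *Ppl* at 1.38 and -0.54. Sex and embryo cannot be told apart in these pools.

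**Figure D5:**
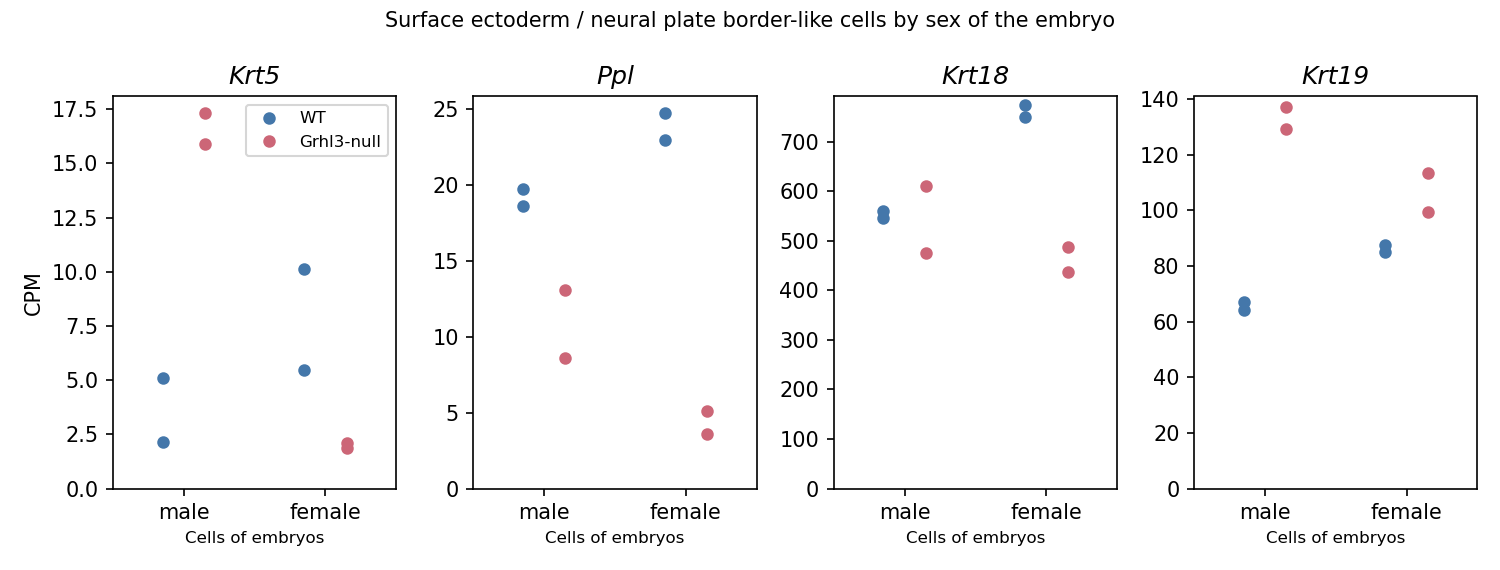
Level (CPM, linear axes from 0) of *Krt5*, *Ppl*, *Krt18* and *Krt19* in male and female surface ectoderm/neural plate border-like cells of each library. *Krt5* is higher in null than in WT in male cells and lower in female cells, whereas *Ppl* is lower and *Krt19* higher in null in both.

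Related genes were counted from lists of the same structures, beside shares of all genes called of 14.5% in the surface ectoderm-like and 20% in the gut-like class. Of 20 other keratins only 6 passed the filter in the surface ectoderm-like class and 1 fell, *Krt17* (log2 fold change -1.51, from 3.05 to 1.08 CPM), while the abundant *Krt7* was at means of 71.6 CPM in WT and 75.4 CPM in null (0.03, not called). Of 12 other desmosomal and cornified envelope genes 6 were tested. The plakophilin *Pkp1* (-2.54), the envelope plakin *Evpl* (-1.12) and the desmosomal tetraspan gene *Perp* (-0.66) fell, and *Pkp4* rose (0.23). Of 18 adherens and tight junction genes 9 fell and 1 rose, led by *Cldn3* (-1.61), *Cldn4* (-1.43) and *Cldn7* (-0.56), and of 14 epithelial regulators tested 9 fell, with *Grhl3* followed by *Esrp2* (-1.97) and *Ovol1* (-1.71). Of 7 hemidesmosome genes tested 1 rose (*Dst*, 0.39) and 1 fell (*Cd151*, -0.21), and of 9 other intermediate filament genes 2 fell (*Lmna*, -1.22, and *Vim*, -0.35) and 1 rose (*Nes*, 0.34). In the gut-like class 7 of the 18 junction genes rose and 1 fell (*Cgn* 0.52, *F11r* 0.41 and *Cdh3* -0.36), 1 of 4 desmosomal genes tested rose (*Pkp2*, 0.31), 1 of 5 other keratins rose (*Krt7*, 0.21), 4 of 7 hemidesmosome genes rose (among them *Itga6*, 0.36, and *Cd151*, 0.32), and of 13 regulators tested only *Grhl3* fell. The counts of 1 in 6 keratins in surface ectoderm and 1 in 5 keratins and 1 in 4 desmosomal genes in gut are near the shares over all genes.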

How the data were processed

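The 4 libraries were grouped by genotype from their labels. The deposited values are whole-number UMI counts per gene and cell, which the authors made by mapping to mm10 in Cell Ranger 3.0.0. They hold the droplets called as cells, prior to any filter on quality. Near-identical copies of the keratin genes were not examined. *Dsg2* and *Krt8* each overlap a counted non-coding gene on the opposite strand.

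Cells needed at least 3000 genes, 7500 UMIs and at most 7% mitochondrial UMIs, which left between 209833527 and 226723903 UMIs per library. Clustering used R 4.3.3 with sctransform 0.4.2 and Seurat 5.3.0 (3000 variable features, 30 components, 20 neighbours, resolution 0.4, no integration). Clusters were named from 15 markers per cell type that the study had chosen on these cells. The automatic doublet threshold in scanpy 1.11.5 marked at most 0.0627% of a library and so had not worked, and the highest 5% of scores were removed in an alternative. Libraries of 1 genotype differed beyond the counting error of UMIs, with a chi-square of 8.20 (WT) and 14.4 (null) per degree of freedom. This measure does not take the sampling of cells into account.

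Summed UMIs per class and library were tested in edgeR 4.0.16 (TMM, filterByExpr, quasi-likelihood, Benjamini-Hochberg adjustment), with DESeq2 1.42.0 among the alternatives. The tests of whether a genotype effect differed between classes, subsets or sexes held no term for library, although profiles of the same library were compared. Standard errors were derived from each fold change and its F value. Exact binomial limits and the limit of 3 counts cover counting error only. Correlations used log counts per 10000 UMIs. A cell was male with at least 2 Y-linked and at most 2 *Xist* UMIs, and female with at least 3 *Xist* and at most 1 Y-linked UMIs. The edgeR fits of surface ectoderm, of gut, of all cells, of their class difference and of *Trp63* against *Tfap2c* cells were also run on simulated counts. The fits of how the genotype effect differed between sexes or subsets, and those in DESeq2, were not.

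The members, lists and tests were chosen with earlier results of these data known. Named genes were the 10 members in every class, up to 3 examples of each list (the largest changes among those called), the genes of most similar profile, and *Grhl3*. Some genes that this rule names are not reported here. Other genes named from the lists, and the splits by sex and of the genotype effect by *Trp63* and *Tfap2c*, were chosen after their values were seen.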

Additional observations from a re-analysis of the deposited data

Results flagged for a closer look

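The effect of genotype on 8 members differed between the surface ectoderm-like and gut-like classes by the interaction test, always lower in surface ectoderm. The log2 differences were -1.86 for *Ppl*, -1.09 for *Dsc2*, -0.88 for *Krt18*, -0.87 for *Pkp3*, -0.82 for *Jup*, -0.72 for *Krt8*, -0.66 for *Dsg2* and -0.30 for *Dsp*.

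Within the surface ectoderm-like class the effect differed between *Tfap2c*-only and *Trp63*-only cells, by -2.68 for *Ppl*, -0.84 for *Krt18* and -0.83 for *Krt8*, lower in *Tfap2c*-only cells. The value of *Ppl* rests on very few null UMIs in *Tfap2c*-only cells and is a description.

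Between male and female cells of the surface ectoderm-like class it differed by 4.27 for *Krt5*, 1.73 for *Ppl*, 0.79 for *Krt19*, 0.76 for *Krt18*, 0.45 for *Krt8* and -0.68 for *Dsp* (male minus female). In gut-like cells it differed by 1.92 for *Ppl* and -0.52 for *Krt19*. These values mark a difference between embryos of the pools, of which sex is 1 and others were not separated.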

How the results depend on the processing

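Over all alternatives and single genes, 506 values kept direction and side of the threshold, 29 lost a call, 21 gained one and 19 changed sign. With single libraries left out, and the lone library assumed to vary like those of the other genotype, between 6 and 7 members were called in the surface ectoderm-like class, in the gut-like class, over all cells and for the difference between the classes, between 3 and 4 for *Trp63* against *Tfap2c* cells, and between 21 and 27 calls were made in the other classes. DESeq2 made 13 calls in the other classes in place of 28. Replicate numbers only name the libraries, and the correlation of replicate differences was 0.0171 in surface ectoderm, 0.0698 in gut and 0.227 over all cells. With the replicate block 8 members were called in surface ectoderm, adding *Krt5* (adjusted p = 0.026) and *Pkp3* (adjusted p = 0.032), 7 in gut and 29 times in the other classes. The shares of all genes called under the alternatives are not given, so these counts of members have no background beside them. In female cells the log2 fold change turned to -2.04 for *Krt5* and 0.20 for *Dsp* in surface ectoderm, -0.54 for *Ppl* in gut, and -1.70 for *Krt5* and -0.054 for *Pkp3* over all cells. In male cells over all cells it turned to -0.31 for *Dsp*, -0.10 for *Dsc2* and 0.068 for *Ppl*. A limit of 5% mitochondrial UMIs gave *Pkp3* -0.012 over all cells. Leaving out single libraries moved *Dsp* in surface ectoderm between -0.037 and 0.0036, and the class difference of *Krt5* between -1.38 and 0.16 and of *Krt19* between -0.0082 and 0.22. Between *Trp63* and *Tfap2c* cells it moved *Dsg2* between -0.21 and 0.12 and *Jup* between -0.41 and 0.15. There, WT libraries alone gave *Krt8* -0.088, and null libraries alone gave *Dsg2* 0.39, *Jup* 0.34 and *Ppl* 1.33. The causes were not tested. Low counts limit the tests of *Krt5*, *Pkp3* and *Ppl*.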
